A study of Mus musculus with 10 samples.

Results

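The genes of MHC class I antigen presentation were examined in colon tumors of mice with and without deletion of Wls. They comprise 9 of the 16875 gene names in the FPKM table, namely the heavy chains H2-K1, H2-D1 and H2-T23, the light chain B2m, the peptide transporter subunits Tap1 and Tap2, tapasin (Tapbp), the peptidase Erap1 and the regulator Nlrc5. They were taken by name. They were chosen by their log2 differences between the same 10 tumors, which were already known, so these differences are given as a description, without a test, whereas other genes of the same route were tested.

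Nearly every nucleated cell displays short peptides from its own proteins on MHC class I molecules, where CD8 T cells inspect them and NK cells notice when the molecules are missing. Peptides cut by the proteasome are pumped into the endoplasmic reticulum by the TAP transporter, trimmed by ERAP1 and loaded with the help of tapasin onto a heavy chain paired with beta-2-microglobulin. NLRC5 is a transcriptional co-activator of class I genes, and interferon-gamma is a known inducer of the whole route, in intestinal epithelium as elsewhere.

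The tumors had been induced with azoxymethane (AOM) and 3 cycles of 2% dextran sulfate sodium (DSS), a carcinogen and a colitis-inducing polymer, in mice aged 6 to 10 weeks at the start. The 5 control tumors are labelled WT by title and Wls flox/flox by genotype, with no Cre named. The 5 Villin-WlscKO tumors came from Villin-CreERT2, Wls flox/flox mice given 5 injections of tamoxifen at 80 mg/kg, which started 30 days before collection. Wls carries Wnt proteins to the cell surface, and the Villin promoter limits the Cre to intestinal epithelium, so stroma and leukocytes in a tumor keep an intact gene. By these labels both groups share the floxed alleles, and both received AOM and DSS, and control tumors are given as tumors without tamoxifen unless stated otherwise. Whole pieces of tumor were dissected, RNA therefore stems from all cell types in them, and n counts tumors because the number of mice is not stated. The p-values below therefore rest on the spread between these tumors, part of which may be technical, and treat the tumors as independent. Tumors that shared a mouse could make these p-values too small, and whether any did is unknown.

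Values are FPKM, the number of fragments divided by transcript length in kilobases and by mapped reads in units of 1000000, which makes levels comparable between genes of different length. Differences between the groups are on the log2(FPKM + 1) scale, positive where the Villin-WlscKO mean is the higher, with the standard error (SE) of a limma fit over all 16757 genes with a mean of at least 0.5 FPKM. The read depth behind these values is unknown. The sum of FPKM lay between 1265992 and 1533885 in control tumors and between 1207683 and 1341494 in Villin-WlscKO tumors. Wls had 61.3 to 79.9 FPKM in the control group and 2.03 to 11.7 FPKM in the deleted group. Xist, a transcript of the inactive X chromosome, reached 0.42 FPKM at most in control and 439 FPKM or more in Villin-WlscKO tumors, and the Y-linked Eif2s3y had 30.4 FPKM or more in control and no more than 0.138 FPKM in Villin-WlscKO tumors. Genotype, sex and tamoxifen therefore cannot be told apart in any comparison below. Villin-WlscKO tumors 2 and 3 stood apart by the squamous keratin Krt5, with 469.5 and 669 FPKM against at most 0.315 FPKM in Villin-WlscKO tumors 1, 4 and 5, and values without them are given where they matter.

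All 9 genes were higher in Villin-WlscKO tumors, by log2 0.66 to 3.59. Their median difference was 2.22, beside 0.0073 over all genes tested. For all 9 the lowest Villin-WlscKO tumor lay above the highest control tumor, a pattern that 5.33% of all genes tested showed in this direction (4.76% in the other), and all 9 were among the 6.12% of genes that limma called higher (4.75% lower, 10.9% in either direction). The comparison chose the genes, so nothing is read from these counts. In bulk tissue, more cells that express these genes and more RNA per cell cannot be told apart.

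**Figure D1:**
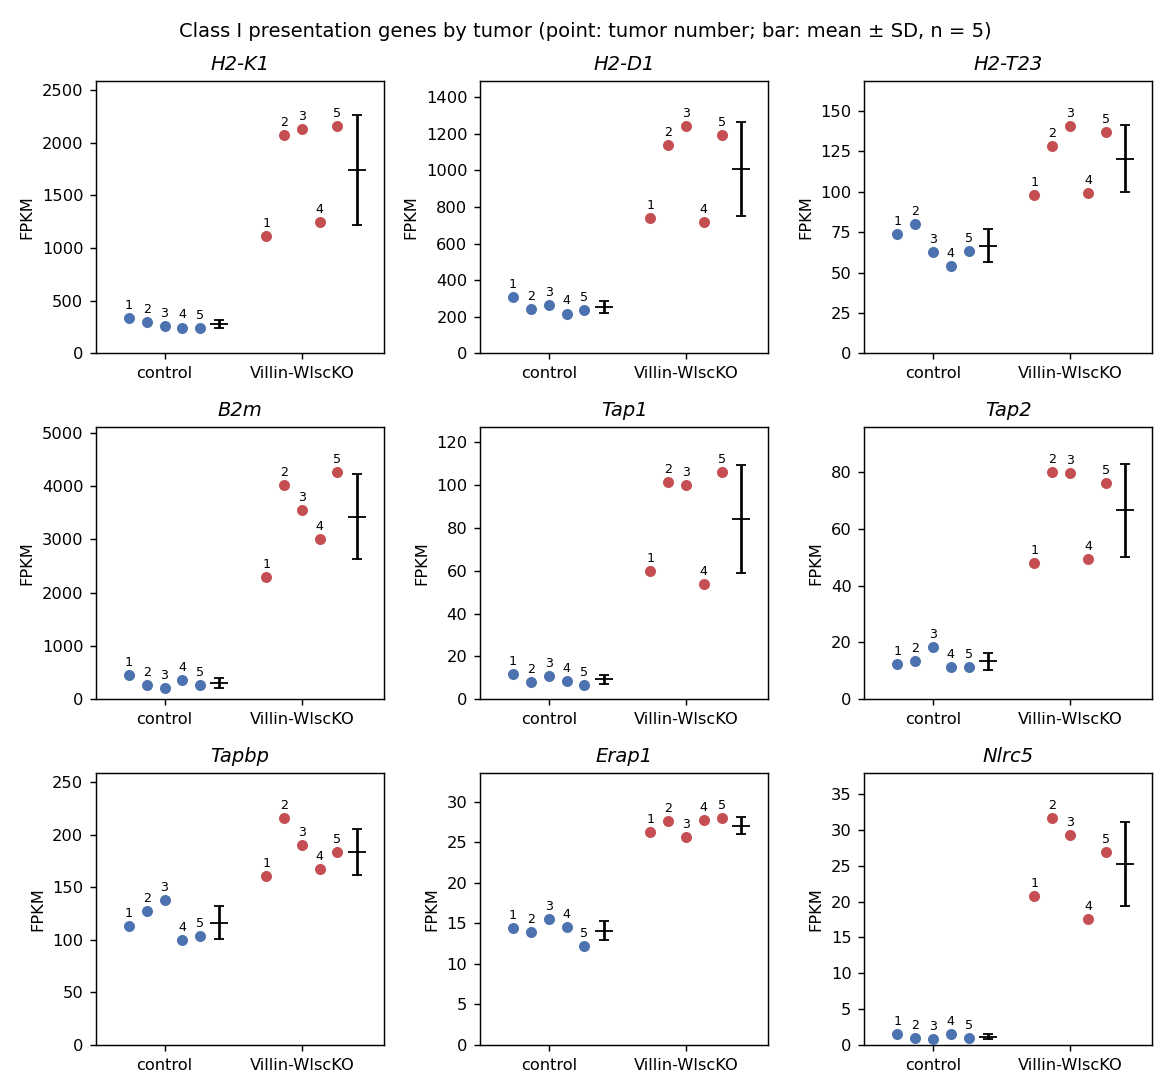
FPKM of the 9 class I genes in each tumor, 1 panel per gene with its own axis from 0, with the 5 control and 5 Villin-WlscKO tumors as numbered points and the group mean ± SD as a bar. The groups are separated for every gene, and tumors 1 and 4 are the lower Villin-WlscKO points in every panel but that of Erap1.

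The heavy chains form the peptide groove. H2-K1 lies on chromosome 17 (chr17:33996017-34000347, minus strand, GRCm38 with GENCODE M21) and H2-D1 on the same chromosome (chr17:35262730-35267499, plus strand). They encode the K and D molecules, the classical class I heavy chains of C57BL/6 mice. H2-K1 was at 337, 299, 260.3, 245 and 245 FPKM in control tumors 1 to 5 and at 1110, 2070, 2128, 1244 and 2155 FPKM in Villin-WlscKO tumors 1 to 5. Tumors 2, 3 and 5 were the high ones in the Villin-WlscKO group, and even the lowest, tumor 1, was above every control tumor. The mean rose from 277 ± 40.2 to 1741 ± 518 FPKM (SD, n = 5 each), which is 6.28 times as high (log2 difference 2.60, SE 0.21).

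H2-D1 was at 305.5, 240, 266.5, 218 and 237.5 FPKM in control tumors 1 to 5, a level close to that of H2-K1. In Villin-WlscKO tumors 1 to 5 it was at 738, 1137, 1241, 717 and 1196 FPKM. The same tumors 2, 3 and 5 were high, and the groups did not overlap. The mean went from 253 ± 34.0 to 1006 ± 257 FPKM (SD, n = 5), 3.97 times the control level (log2 difference 1.95, SE 0.18). The ratio of H2-K1 to H2-D1 FPKM within a tumor was 0.977 to 1.25 in control tumors and 1.504 to 1.82 in Villin-WlscKO tumors, so the K transcript gained more than the D transcript in all 5.

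H2-T23 (chr17:36029773-36032855, minus strand) encodes Qa-1, a heavy chain of little polymorphism that presents leader peptides of other class I molecules to the NKG2A receptor with CD94. Its FPKM in control tumors 1 to 5 was 73.8, 79.9, 62.8, 53.8 and 63.0, and in Villin-WlscKO tumors 1 to 5 it was 97.8, 128, 140.4, 99.2 and 137. The gap between the groups was narrow, since the lowest Villin-WlscKO tumor and the highest control tumor were 97.8 and 79.9 FPKM. The mean rose from 66.7 ± 10.2 to 120.5 ± 20.6 FPKM (SD, n = 5), 1.81 times as high (log2 difference 0.84, SE 0.14). Sequence shared with relatives limits these 3 rows. Of the 50-base stretches in their transcripts, 9.63% for H2-K1, 12.8% for H2-D1 and 13.6% for H2-T23 also occur in a transcript of another gene, and how the quantification divided such reads was not tested.

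B2m (chr2:122147686-122153083, plus strand) encodes beta-2-microglobulin, the light chain without which most class I heavy chains do not reach the surface. It was the most abundant of the 9 in FPKM in Villin-WlscKO tumors. Control tumors 1 to 5 held 445, 257, 209.7, 366 and 268 FPKM and Villin-WlscKO tumors 1 to 5 held 2292, 4022, 3552, 3007 and 4262 FPKM. Every Villin-WlscKO tumor was several times above the highest control tumor, tumor 1. The mean went from 309 ± 95.0 to 3427 ± 795 FPKM (SD, n = 5), 11.1 times as high (log2 difference 3.48, SE 0.23). None of its 50-base stretches occurs in another gene. The FPKM ratio of B2m to H2-K1 and H2-D1 together was 0.398 to 0.792 in control tumors, with a median of 0.556, and 1.05 to 1.53 in Villin-WlscKO tumors, with a median of 1.25. The light chain transcript thus went from below to above the summed K and D transcripts in FPKM, with no overlap between the groups.

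The promoters of these genes carry short elements that the field has long tied to class I transcription. The stretches below are shown so that the matches in the heavy chain genes, B2m and Erap1 can be read in their sequence. Tap1 and Tapbp, whose windows hold a CRE core with a CCAAT box and CCAAT boxes alone, are not printed. They come from RefSeq (GRCm38.p6) and are written 5′ to 3′ on the strand of the gene, with matches to the searched motifs in capitals. They are placed by the RefSeq start, whereas the gene spans above are those of GENCODE, so the stretches of H2-D1, H2-T23 and Erap1 lie inside the GENCODE span of the gene.
H2-K1, chr17:34000351-34000467, minus strand: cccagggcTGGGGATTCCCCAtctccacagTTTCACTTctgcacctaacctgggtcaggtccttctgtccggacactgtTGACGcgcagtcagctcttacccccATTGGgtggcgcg
H2-D1, chr17:35262914-35263053, plus strand: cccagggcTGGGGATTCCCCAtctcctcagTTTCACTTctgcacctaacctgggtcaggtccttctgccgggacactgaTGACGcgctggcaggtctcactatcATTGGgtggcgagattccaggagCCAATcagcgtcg
B2m, chr2:122147540-122147646, plus strand: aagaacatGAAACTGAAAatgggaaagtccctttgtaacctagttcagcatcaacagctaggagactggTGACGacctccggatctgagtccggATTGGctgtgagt
H2-T23, chr17:36032741-36032833, minus strand: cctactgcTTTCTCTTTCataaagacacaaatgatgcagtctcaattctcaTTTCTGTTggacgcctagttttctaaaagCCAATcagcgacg
Erap1, chr13:74639833-74639858, plus strand: gccggtccaccttcacTTTCACTTTC

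Motifs were searched on both strands in windows from 250 bases before to 50 bases after each annotated start. Of the 9 genes, 7 have such a window, and Tap2 and Nlrc5 have no entry. The kappaB site TGGGGATTCCCCA, of the kind bound by NF-kappaB, is the longest run of the H2-K1 window that is symmetric around a central base. It occurs in 4 of 32851 windows (0.0122%), the pair of overlapping windows listed for H2-K1, that of H2-D1 and that of the heavy chain gene H2-Q6, and since the letters were read from H2-K1 its own match is given by construction. The stretches of H2-K1 and H2-D1 above are identical at 105 of 117 bases (89.7%). The ISRE core GAAANNGAAA, which interferon regulatory factors recognise, was found in B2m, H2-T23 and Erap1 and in 3.44% of windows, and the shorter IRF core AANNGAAA, contained in every ISRE core, in these 3 and in H2-K1 and H2-D1, beside 23.9% of windows. The CRE core TGACG, part of the X2 box of the class I enhanceosome, was found in 4 genes (B2m, H2-K1, H2-D1 and Tap1) and in 20.8% of windows. CCAAT, read on the opposite strand as ATTGG and bound by NF-Y, was found in 6 of 7 genes, all but Erap1, and in 37.4% of windows. In H2-K1, H2-D1 and B2m the 2 are placed alike, TGACG first and ATTGG after 20 bases between them. That spacing, chosen after the sequences had been seen, occurs in 31 windows (0.0944%) of 27 genes, and the heavy chain gene H2-M3 is among them. Tap1, with a larger log2 difference (3.03) than H2-K1 or H2-D1, does not have it, and no relation between motifs and differences was tested. The GAS motif TTCNNNGAA was in none of the 7 windows and in 8.3% of all windows. A match is a string of letters and not a site shown to be bound, and no binding was measured in these tumors.

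**Figure D2:**
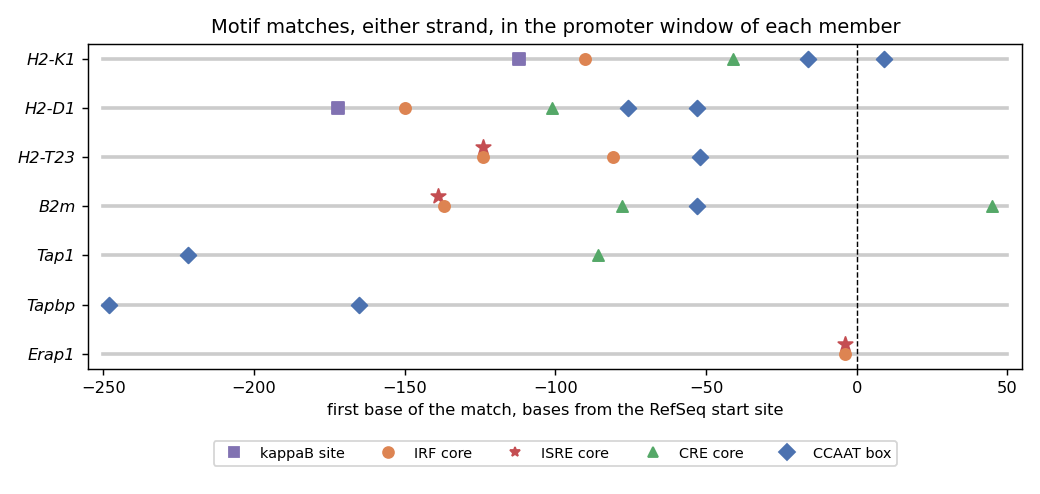
Position of motif matches, in bases from the annotated transcription start, in the promoter windows of the 7 class I genes that have one. Symbols mark the first base of a match on either strand. H2-K1 and H2-D1 show the same order of kappaB site, IRF core, CRE core and CCAAT box, B2m has an ISRE core, CRE core and CCAAT box in that order before its start, and Tapbp shows CCAAT matches alone.

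Tap1 (chr17:34187553-34197225, plus strand) and Tap2 (chr17:34203527-34216321, plus strand) encode the 2 subunits of the transporter that moves peptides into the endoplasmic reticulum. Tap1 was at 11.9, 8.20, 10.6, 8.67 and 6.62 FPKM in control tumors 1 to 5 and at 59.9, 101.5, 100.3, 53.8 and 106 FPKM in Villin-WlscKO tumors 1 to 5. Again tumors 2, 3 and 5 were high and all 5 were above the controls. On average it went from 9.21 ± 2.08 to 84.3 ± 25.3 FPKM (SD, n = 5), 9.16 times as high (log2 difference 3.03, SE 0.22).

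Tap2 was at 12.5, 13.5, 18.3, 11.3 and 11.2 FPKM in control tumors 1 to 5 and at 47.9, 80.04, 79.7, 49.6 and 76.1 FPKM in Villin-WlscKO tumors 1 to 5. The groups were apart, and within the Villin-WlscKO group the order into high tumors 2, 3 and 5 and lower tumors 1 and 4 was kept. Its mean went from 13.4 ± 2.93 to 66.7 ± 16.5 FPKM (SD, n = 5), 4.98 times as high (log2 difference 2.22, SE 0.19). The transporter works as a heterodimer, and the FPKM ratio of Tap1 to Tap2 was 0.58 to 0.950 in control tumors and 1.085 to 1.395 in Villin-WlscKO tumors. The 2 genes stand beside Psmb8 and Psmb9, which encode immunoproteasome subunits. Tap1 and Psmb9 overlap by 212 bases on opposite strands, and whether strand was used in the quantification is not given.

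Tapbp (chr17:33915899-33929292, plus strand) encodes tapasin, which bridges the transporter and the heavy chain and edits the peptide. It was at 113, 127, 138, 99.8 and 104 FPKM in control tumors 1 to 5 and at 161, 216, 191, 168 and 183 FPKM in Villin-WlscKO tumors 1 to 5. This was the smallest gap of the 9, with the lowest Villin-WlscKO tumor 1.17 times as high as the highest control tumor. The mean went from 116 ± 16.0 to 184 ± 21.6 FPKM (SD, n = 5), 1.58 times as high (log2 difference 0.66, SE 0.11). All 10 values of Tapbp are identical to those of Zbtb22, a zinc finger gene that overlaps it by 3422 bases on the same strand, so the row cannot be assigned to Tapbp alone. No other of the 9 genes has its values under a further name.

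Erap1 (chr13:74639568-74693201, plus strand) encodes the aminopeptidase that trims peptides to the length the groove takes. It was at 14.5, 13.9, 15.5, 14.5 and 12.2 FPKM in control tumors 1 to 5 and at 26.2, 27.6, 25.6, 27.8 and 28.0 FPKM in Villin-WlscKO tumors 1 to 5. Villin-WlscKO tumors were nearly alike for this gene, the highest being 1.09 times the lowest. Its mean rose from 14.1 ± 1.21 to 27.0 ± 1.06 FPKM (SD, n = 5), 1.92 times as high (log2 difference 0.89, SE 0.072). In the other 8 genes tumors 2, 3 and 5 were all above tumors 1 and 4, and Erap1 was the exception.

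Nlrc5 (chr8:94434356-94527272, plus strand) encodes the co-activator that is recruited to class I promoters through RFX, CREB/ATF and NF-Y proteins. It had the lowest level of the 9 in control tumors and the widest separation. Control tumors 1 to 5 held 1.58, 0.998, 0.761, 1.56 and 0.895 FPKM and Villin-WlscKO tumors 1 to 5 held 20.8, 31.6, 29.3, 17.6 and 26.9 FPKM. The lowest Villin-WlscKO tumor was 11.1 times as high as the highest control tumor. The mean went from 1.16 ± 0.385 to 25.2 ± 5.91 FPKM (SD, n = 5), 21.8 times as high. On the log2(FPKM + 1) scale the difference was 3.59 (SE 0.18), a scale that understates changes of genes near 1 FPKM, and the log2 ratio of the mean FPKM was 4.44.

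The heavy chain family holds many further genes, most of them in the Q, T and M regions of chromosome 17. Of 31 names listed, 18 were in the table and 17 passed the level filter. In limma with Benjamini-Hochberg adjustment over all genes 9 of the 17 rose and none fell, with a median log2 difference of 1.11, beside 6.12% of all genes called higher and 4.75% called lower. At an unadjusted p under 0.05 also none fell. The 9 called genes were also those without overlap between the groups, and H2-T10, with a control mean of 0.352 FPKM, passed the level filter only through the Villin-WlscKO group.

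H2-Q7, which encodes a Qa-2 molecule, had the largest difference of the family. It was at 6.65, 3.38, 2.90, 5.10 and 3.88 FPKM in control tumors 1 to 5 and at 91.9, 279.1, 257, 126.5 and 278.7 FPKM in Villin-WlscKO tumors 1 to 5 (log2 difference 5.18, SE 0.33, limma adjusted p = 1.13e-05). Villin-WlscKO tumors 2, 3 and 5 were again the high ones. H2-Q6 rose from 2.52 ± 1.47 to 94.9 ± 42.9 FPKM (SD, n = 5, limma adjusted p = 4.83e-05) and H2-Q4 from 21.8 ± 2.30 to 144 ± 50.9 FPKM (SD, n = 5, limma adjusted p = 7.57e-05). H2-Q5 (log2 difference 3.84), H2-T10 (1.98), H2-T22 (1.75), H2-Q10 (1.49), H2-Q2 (1.32) and H2-M3 (1.11) also rose, with limma adjusted p between 0.000323 and 0.00353. H2-Q5 and H2-T10 are annotated as polymorphic pseudogenes in GENCODE M21, so their transcripts need not stand for a protein. H2-M3, which presents formylated bacterial peptides, went from 3.86 ± 0.261 to 9.86 ± 3.01 FPKM (SD, n = 5), and 0.576% of its stretches are shared with another gene. For H2-Q5, H2-T22, H2-T10, H2-Q6 and H2-Q7 these shares are 36.4%, 34.5%, 32.9%, 32% and 26.4%, and for H2-Q4, H2-Q10 and H2-Q2 they are 21.8%, 19% and 16.1%, so these rows are less certain.

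The members of the family that did not pass include proteins that share the fold but serve other tasks. Cd1d1, which presents lipids, differed by log2 0.01, Mr1, which presents vitamin B metabolites, by -0.28, Fcgrt, the neonatal Fc receptor, by -0.06 and Hfe, a regulator of iron uptake, by 0.27. H2-Q1, H2-K2, H2-T24 and H2-M2 differed by 0.31, 0.30, 0.21 and 0.07 and did not pass either. H2-T3 stayed under the level filter.

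Proteasomes supply the peptides, and under interferon the subunits encoded by Psmb8, Psmb9 and Psmb10 replace the constitutive ones encoded by Psmb5, Psmb6 and Psmb7. Of 7 genes for the immunoproteasome, its activator PA28 and its assembly factor, 6 rose in limma, beside 6.12% of all genes, with a median log2 difference of 0.99 over the 7. Psmb8 had 21.7 to 29.6 FPKM in the control group and 141, 269, 302, 152 and 294 FPKM in Villin-WlscKO tumors 1 to 5 (log2 difference 3.05, SE 0.23, limma adjusted p = 3.15e-05). Psmb9 rose from 13.9 ± 2.00 to 122 ± 39.4 FPKM (SD, n = 5, limma adjusted p = 1.96e-05) and Psmb10 from 44.5 ± 5.97 to 125 ± 28.5 FPKM (SD, n = 5, limma adjusted p = 0.000412). The activator genes Psme1, Psme2 and Psme2b rose by log2 0.91, 0.81 and 0.99, while Pomp, the assembly factor, differed by 0.60 and did not pass (limma adjusted p = 0.282). Sequence shared by Psme2 and Psme2b was not searched, so their rows may not be separate measurements.

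Among 5 constitutive subunit and activator genes limma called 0 in either direction, and 0 at an unadjusted p under 0.05. Psmb6 and Psmb7 both differed by log2 0.04, whereas Psmb5 varied widely among tumors, from 952 to 2607 FPKM in control and from 711 to 3036 FPKM in Villin-WlscKO tumors. The FPKM ratio of Psmb9 to Psmb6, the pair that exchange, was 0.0537 to 0.0771 in control and 0.365 to 0.735 in Villin-WlscKO tumors, and that of Psmb10 to Psmb7 was 0.211 to 0.326 and 0.506 to 0.882.

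Loading and folding helpers moved less than the transporter. Of 14 genes 6 rose and none fell (8 and 0 at an unadjusted p under 0.05), beside 6.12% and 4.75% of all genes, with a median log2 difference of 0.32. The count of 6 became 4 with quantile normalization and 5 with names of identical values counted once. It was 5 without Villin-WlscKO tumors 2 and 3 and 5 to 7 with a tumor left out. Tapbpl, which encodes the tapasin-related peptide editor TAPBPR, rose from 16.1 ± 1.15 to 33.0 ± 4.26 FPKM (SD, n = 5, log2 difference 0.99, SE 0.098, limma adjusted p = 0.00018). The chaperone calreticulin, Calr, rose from 292 ± 42.2 to 454 ± 34.9 FPKM (SD, n = 5, log2 difference 0.64, limma adjusted p = 0.0029). Pdia3, the disulfide isomerase ERp57 of the loading complex, rose by log2 0.40 (limma adjusted p = 0.0106), and Hspa5, Pdia6 and Pdia4, which serve protein folding in general, rose by 0.72, 0.54 and 0.39. Calnexin, Canx, differed by 0.26 and did not pass (limma adjusted p = 0.203). Of 9 other peptidases on the route none rose in limma (1 at an unadjusted p under 0.05) and 1 fell, Ide, an insulin-degrading enzyme, by log2 0.50 (limma adjusted p = 0.049). Ide did not pass at a common FPKM sum, nor without control tumor 1, 2, 4 or 5 or Villin-WlscKO tumor 1, 2, 4 or 5, where its limma adjusted p was 0.0568 to 0.11. Pdia3 did not pass with quantile normalization (limma adjusted p = 0.128).

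Factors that act at class I promoters were mostly called in neither direction, with 2 of 14 higher and 1 lower, counts to be read beside the 6.12% and 4.75% of all genes. Irf1, an interferon-induced activator that binds ISRE elements, was at 45.2, 55.1, 49.7, 44.5 and 49.7 FPKM in control tumors 1 to 5 and at 149.9, 138.5, 157, 110.9 and 138.3 FPKM in Villin-WlscKO tumors 1 to 5 (log2 difference 1.48, SE 0.098, limma adjusted p = 1.18e-05). Unlike H2-K1, H2-D1 and H2-T23, it did not set Villin-WlscKO tumors 2, 3 and 5 above tumor 1. Ciita, the co-activator of class II genes and a relative of Nlrc5, rose from 0.533 ± 0.195 to 6.62 ± 1.51 FPKM (SD, n = 5, log2 difference 2.30, limma adjusted p = 1.26e-05). Ezh2, a Polycomb methyltransferase, fell by log2 0.45 (limma adjusted p = 0.0441), but did not pass at a common FPKM sum, nor without control tumor 1, 3 or 4 or any of Villin-WlscKO tumors 2 to 5, where its limma adjusted p was 0.0707 to 0.0964. Rfx5, which encodes a subunit of RFX, was at 12.5 ± 0.954 and 12.6 ± 1.17 FPKM (SD, n = 5). The difference of 0.01 (SE 0.085) did not pass (limma adjusted p = 0.972), and its sign changed with the scaling.

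Of the 10 interferon-gamma signalling genes tested, 5 rose and none fell in limma (7 and 1 at an unadjusted p under 0.05), beside 6.12% and 4.75% of all genes. Without control tumor 2, 4 or 5, without Villin-WlscKO tumor 5, or without Villin-WlscKO tumors 2 and 3, 4 rose. Irf9, Socs1 and Ifngr1 rose by log2 0.77, 1.6 and 0.59. Ifng itself lay below the level filter and was not tested. It was listed at 0 in control tumors 1, 2, 3 and 5 and at 0.0584 FPKM in tumor 4, and at 0.65, 1.35, 0.72, 0.185 and 0.39 FPKM in Villin-WlscKO tumors 1 to 5.

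Of the 10 tested genes for lymphocyte receptors and ligands that meet class I or stand beside it, 4 rose and none fell. At an unadjusted p under 0.05 these counts were 4 and 1, and 6.12% and 4.75% of all genes were called. Raet1d, Raet1e and H60b, none of them called, have identical values in all 10 tumors, so the 10 names are not 10 separate rows. Of the 4, Cd8a, Klrd1 and H60c had control means of 0.0923, 0.368 and 0.279 FPKM and passed the level filter only through the Villin-WlscKO group where they were high, so their calls are no support for the list. Cd8a, the co-receptor chain of CD8 T cells, had 0.0373 to 0.184 FPKM in control and 0.384 to 1.41 FPKM in Villin-WlscKO tumors (log2 difference 0.88, limma adjusted p = 0.00673). Klrd1, which encodes CD94, the partner of the Qa-1 receptor, rose by log2 0.75 (limma adjusted p = 0.0167), and H60c, an NKG2D ligand, by 0.70 (limma adjusted p = 0.021). Cd274, which encodes PD-L1, rose from 2.08 ± 0.536 to 11.6 ± 4.06 FPKM (SD, n = 5, log2 difference 1.97, limma adjusted p = 0.000666). Without Villin-WlscKO tumors 2 and 3 the count for this list was 1, since Klrd1 and H60c no longer passed (limma adjusted p = 0.0909 and 0.0699) and Cd8a was under the level filter. Cd8a was also under it without Villin-WlscKO tumor 2 or 5. H60c also did not pass without control tumor 2 (limma adjusted p = 0.0537). Over all 8 lists, each gene name counted once and the 9 left aside, 31 of 85 tested names rose and 2 fell. This stands beside 6.12% and 4.75% of all genes, with a median log2 difference of 0.21. With names of identical values counted once, 30 rose. Of the 31, 4 passed the level filter only through the Villin-WlscKO group, and the 2 lower calls, Ide and Ezh2, were lost in the settings named above.

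**Figure D3:**
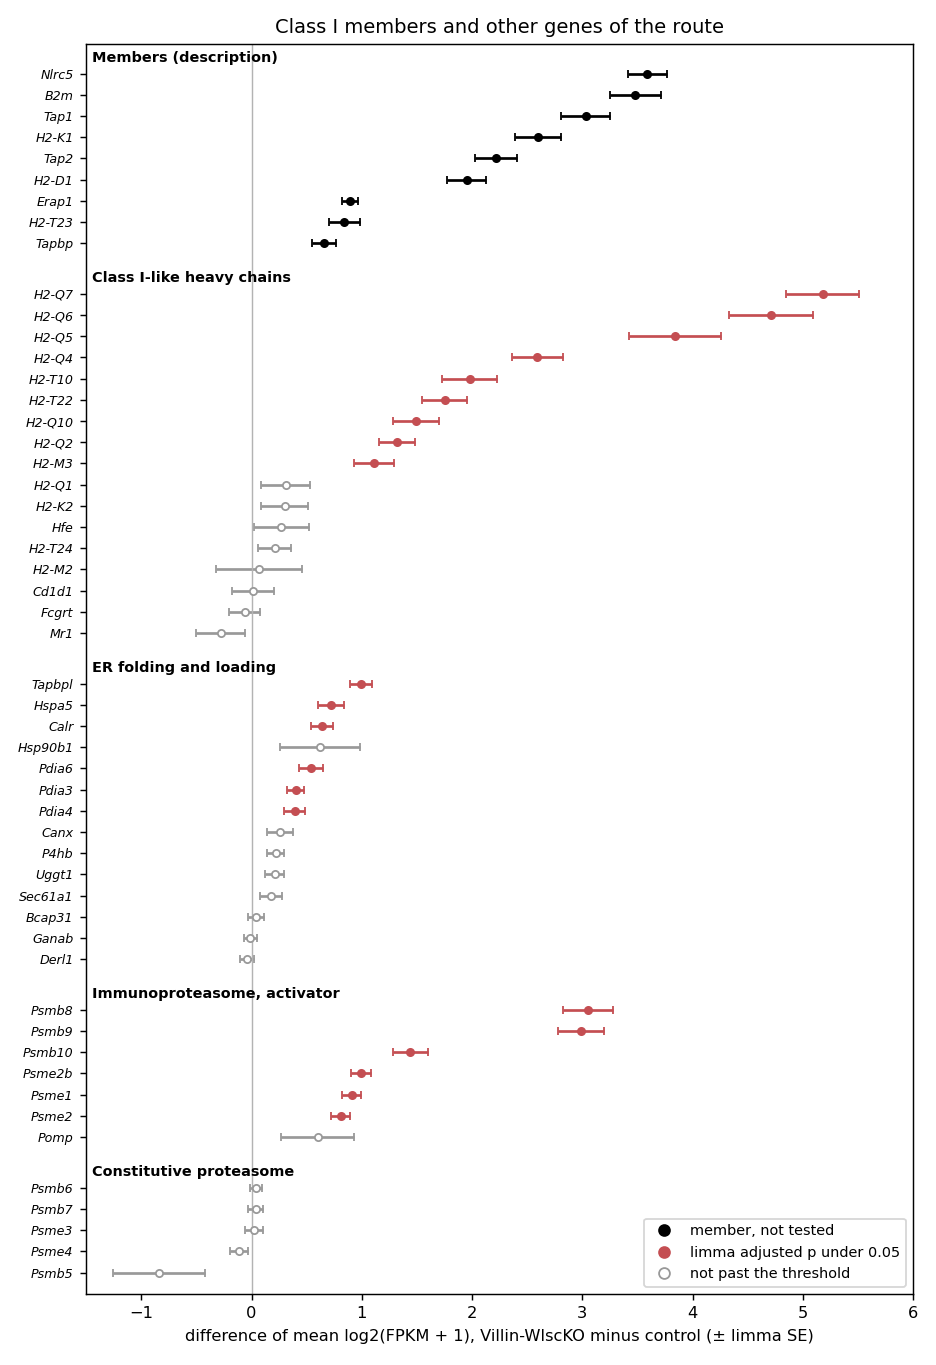
Difference of the group means of log2(FPKM + 1), positive where Villin-WlscKO tumors were higher, for the 9 class I genes (black, not tested) and the heavy chain, loading, immunoproteasome and constitutive proteasome genes, with bars of ± 1 limma SE, red where the adjusted p is under 0.05 and open where it is not. The called Q genes and Psmb8 lie among or above the 9, while H2-Q1, which was not called, lies below them at 0.31. The constitutive subunits Psmb6 and Psmb7 lie at 0.04.

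Levels of leukocyte markers were set beside these results. Counts of called markers are to be read beside the 6.12% of all genes called higher and the 4.75% called lower. The summed FPKM of 8 T and NK cell markers was 4.55 to 9.71 in control and 12.1 to 25.3 in Villin-WlscKO tumors, without overlap. Of the 8, 5 (Cd3d, Cd3e, Cd3g, Cd8a and Nkg7) were called higher in limma. All of these but Cd3g, 4 genes, had control means under 0.5 FPKM and passed the level filter only through the Villin-WlscKO group. Their calls are therefore no support for the list. Cd4, also among the 8, differed by log2 -0.05. The sum of 5 general leukocyte markers overlapped, at 75.8 to 122 and 69.98 to 175 FPKM, and limma called 0 of the 5 (1 at an unadjusted p under 0.05). Macrophage markers summed to 160 to 326 and 129 to 318 FPKM and dendritic cell markers to 4.87 to 13.5 and 2.38 to 8.18 FPKM. B cell markers were low in all tumors, at 0.366 to 1.95 and 1.88 to 7.35 FPKM. Epithelial markers, which define the labelled tissue, summed to 6105 to 8613 FPKM in control and 7460 to 9573 FPKM in Villin-WlscKO tumors. All 8 had positive log2 differences, 1 was called higher (Krt20, a keratin of differentiated colonocytes, log2 difference 0.91, limma adjusted p = 0.0156) and 4 passed at an unadjusted p under 0.05. The part of any cell type in the class I values was not tested.

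Within the groups, a class I score (mean log2(FPKM + 1) over the 9 genes) was 5.70, 5.49, 5.51, 5.43 and 5.31 in control tumors 1 to 5 and 7.28, 7.87, 7.83, 7.32 and 7.85 in Villin-WlscKO tumors 1 to 5. Villin-WlscKO tumors thus fell into a higher set of 3 and a lower set of 2, and the lower 2 were still above all controls. Within the higher set, tumors 2 and 3 had the most Krt5 and Wls of the 5 Villin-WlscKO tumors. Tumor 5 had the least of both, with 0.0703 FPKM of Krt5 and 2.03 FPKM of Wls. The leukocyte sum was 69.98, 175, 168, 119 and 87.8 FPKM in Villin-WlscKO tumors 1 to 5. It was highest in tumors 2 and 3, and tumor 4 lay above tumor 5. The T and NK cell sum was 12.8, 23.3, 25.3, 12.1 and 16.5 FPKM in the same tumors and had the same 3 tumors on top. The cause of the split was not tested.

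**Figure D4:**
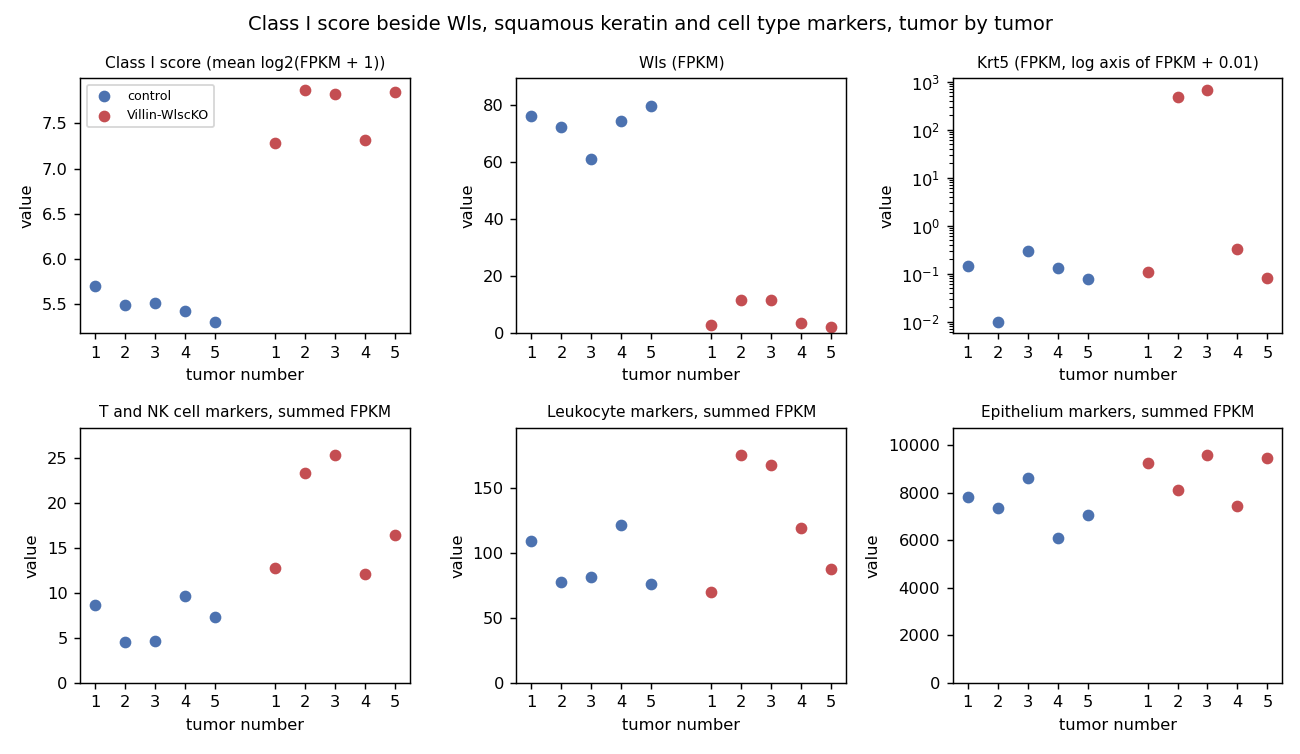
Class I score (mean log2(FPKM + 1) over the 9 genes), FPKM of Wls and Krt5 and summed FPKM of T and NK cell, leukocyte and epithelial markers, each plotted by tumor number for control (blue) and Villin-WlscKO (red) tumors, with a log axis for Krt5. Villin-WlscKO tumors 2, 3 and 5 score 7.83 to 7.87 and tumors 1 and 4 score 7.28 and 7.32, above the controls at 5.31 to 5.70.

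After each group's mean was removed, Pearson correlations between the 9 genes over the 10 tumors ranged from -0.06 to 0.95 over 36 pairs, with a median of 0.605. They are descriptions, since the tumors are few and share their libraries across genes. H2-K1 and H2-D1 had the highest value (0.95), H2-D1 and Tap1 reached 0.93, Tap2 and Tapbp 0.87, and B2m and Nlrc5 0.81. Erap1 stood apart, with all 8 of its pairs between -0.06 and 0.41. B2m and Tapbp were at -0.04, a value that joins 0.79 within Villin-WlscKO tumors and -0.64 within control tumors. Tap2 and Nlrc5 were at 0.4, no higher than Erap1 with Tap1. That value joins 0.95 within Villin-WlscKO tumors and -0.59 within control tumors.

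Among 11783 other genes with a mean of at least 5 FPKM, the 6 most like the score after the same centring were Psmb8 (Pearson r 0.952), Psmb9 (0.938), Nubp2 (0.929), Gys1 (0.928), Gm9845 (0.923) and Glrx5 (0.920), with Spearman rho between 0.855 and 0.964. Psmb8 and Psmb9 are the chromosome 17 neighbours of the Tap genes. The others did not pass the test between the groups, with log2 differences of 0.15, 0.14, 0.19 and 0.01. Without Villin-WlscKO tumors 1 and 4 the 6 values were 0.812 to 0.890. Ciita followed the score at 0.86 and Psmb10 at 0.76, whereas Irf1 was at 0.26 and Calr at 0.01. Of the T and NK cell markers only Nkg7 (0.88) and Cd8a (0.63) were set against the score, both with control means under 0.5 FPKM. Ifng, under the level filter, was at 0.45 and the leukocyte gene Ptprc at 0.35. Epcam, 1 of 8 epithelial markers and the only one set against the score, was at -0.63. The sum of the 8 was 9273, 8123, 9573, 7460 and 9446 FPKM in Villin-WlscKO tumors 1 to 5. That sum did not divide tumors 2, 3 and 5 from tumors 1 and 4. Krt5 had a value of 0.6 and Wls one of 0.44.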

How the data were processed

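Libraries of poly(A) RNA (TruSeq Stranded mRNA) from 10 tumors were mapped by the authors with TopHat2 2.1.1 to GRCm38 (patch p5) and quantified with Cufflinks 2.2.1 and Cuffdiff, and the deposited values are FPKM per gene name and tumor. The annotation release and the use of strand are not given in the sources used here. All 10 columns were assigned by label, 0 were left over, and 2419 of 16875 names share all values with another name. Groups were compared on the log2(FPKM + 1) scale by limma (version 3.58.1, under R version 4.3.3) with a variance trend, no covariate, a mean FPKM of at least 0.5, two-sided tests and Benjamini-Hochberg adjustment, at a threshold of 0.05. Summaries, sequence searches and figures were made in Python 3.11.15 (matplotlib 3.10.9, scipy 1.17.1, pandas 2.3.3, numpy 2.4.6). The 9 genes, the lists and the alternatives were chosen with earlier results of these data known. Named are the 9 genes, a set list of route genes with every heavy chain gene, the 4 largest called differences of each list, the 6 genes most like the score, and checks of labels, sex and tissue. A gene covered by this rule is not reported here. Other named genes (Pomp, the constitutive subunits, Pdia4, Ifngr1 and markers) were chosen after their values were seen. Same-numbered tumors do not pair: their group-centred correlations were 0.0638, -0.0868, 0.0626, 0.1 and 0.162. Alternatives were a pseudocount of 0.1, no filter or a mean FPKM of at least 5, rescaling to a sum of 1000000, median-ratio scaling and quantile normalization. Further ones were variance moderation without trend, log2 ratios of means, a replicate block, names of identical values counted once, each tumor left out, and Villin-WlscKO tumors 2 and 3 left out.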

Additional observations from a re-analysis of the deposited data

Results flagged for a closer look

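In 6 of 102 groups of 5 tumors, from 51 genes, 1 tumor lay far from the other 4, and chance flags about 1 in 20 groups. In Villin-WlscKO tumors, Tapbpl was 25.65 FPKM in tumor 4 (33.2 to 35.7 in the others) and H2-Q10 was 13.12 FPKM in tumor 5 (7.14 to 8.72). In control tumors, Rfx5 was 10.82 FPKM in tumor 3 (12.7 to 13.3), Ciita 0.8755 FPKM in tumor 1 (0.408 to 0.508), H2-Q5 3.928 FPKM in tumor 2 (0.266 to 0.860) and Hfe 8.459 FPKM in tumor 4 (4.77 to 5.36). None of the 9 class I genes had such a tumor in either group.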

How the results depend on the processing

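Of the 42 other named genes 31 kept direction and side of the threshold in every one of the 20 settings that tested them. At a mean FPKM of at least 5, 10 low genes were not tested, and Cd8a, under the level filter, was also not tested without Villin-WlscKO replicate 2 or 5 or without both tumors 2 and 3. The 9 class I genes kept their direction, and their log2 differences moved by less than the spread between tumors except for Nlrc5, at 4.35 with a pseudocount of 0.1 and 4.44 as the log2 ratio of mean FPKM. Without Villin-WlscKO tumors 2 and 3 the differences were 0.56 for Tapbp to 3.39 for Nlrc5, with a median of 2.02. The division of calls depended on scaling: 1026 higher and 796 lower (56.3% higher) became 1385 and 412 (77.1%) at a sum of 1000000, where the median of all genes was 0.0970, and 894 and 1126 (44.3%) with quantile normalization, where it was -0.046. Without Villin-WlscKO tumors 2 and 3, 1101 genes passed, 655 higher and 446 lower, of the lists 1 gene was lower, and 1 of the lymphocyte list was higher. At a mean FPKM of at least 5, 1 promoter factor and 1 gene of the lymphocyte list were higher. With each tumor left out, 1229 to 1986 genes passed, 695 to 1178 higher and 507 to 808 lower, the 507 without control replicate 2, and of the lists 28 to 32 were higher and 0 to 2 lower. The count of lower list genes, 2 in the main comparison (Ide and Ezh2), was 0 at a sum of 1000000, without variance trend and with the replicate block. The replicate block called 1627 genes, 991 higher and 636 lower (60.9% higher), and its numbers do not pair the tumors. Ide, Ezh2 and H60c no longer passed with it (limma adjusted p = 0.109, 0.0789 and 0.0603), and no other call of the 42 genes changed. Pomp, which is not among the 42, passed with it, so that 7 genes of the immunoproteasome list were higher.

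Among the named genes, signs changed only in 5 that did not pass. Rfx5 was at -0.00 with median-ratio and -0.03 with quantile scaling and between -0.04 and 0.04 with a tumor left out. Cd1d1 was at -0.00, -0.02 and, without Villin-WlscKO tumors 2 and 3, -0.01, and between -0.15 and 0.11 with a tumor left out. H2-M2 was at -0.39 and Hfe at -0.12 without Villin-WlscKO tumors 2 and 3, and Fcgrt at 0.04 at a sum of 1000000. With a tumor left out, H2-M2 ranged from -0.15 to 0.35 and Fcgrt from -0.16 to 0.02. The cause was not tested. Depth is unknown, and rows of heavy chain genes with shared sequence and the joint row of Tapbp and Zbtb22 are the least certain.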
